A study of Mus musculus with 4 samples.

Results

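The 8 genes Lta, Ltb, Ltbr, Tnfsf13b, Tnfrsf13c, Tnfrsf13b, Tnfsf11 and Tnfrsf11a encode the ligands and receptors of the lymphotoxin, BAFF and RANKL axes of the tumour necrosis factor superfamily. They were taken by name, as the ligands and receptors of these axes, out of 20284 genes that the array probes could be matched to by RefSeq accession. All 8 had a probe, and 10 probes in all were read. Spleens came from 5-day-old ICR mice, an outbred stock, whose mothers had received carbon black nanoparticles (CB-NP, particles of nearly pure carbon) into the nose 2 times during pregnancy, at a dose of 95 microg/kg on gestational day 5 and again on day 9. Control mothers had received distilled water at 1 mL/kg each time. RNA of the animals of each group was pooled, so that each of the 4 groups (exposed and control males, exposed and control females) is 1 pool on 1 single-colour array, and the spread between animals was not measured. The number of arrays limits the precision.

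Lymphotoxin is made by lymphocytes and by lymphoid tissue inducer cells. Its alpha chain (Lta) is secreted or joins the beta chain (Ltb) on the cell surface, where the mixed trimer binds the receptor Ltbr on stromal cells. In the spleen this signal is needed for the segregation of B and T cell areas and for follicular dendritic cells. BAFF (Tnfsf13b), made largely by myeloid and stromal cells, keeps maturing B cells alive through BAFF-R (Tnfrsf13c), and TACI (Tnfrsf13b) is a second receptor for it. RANKL (Tnfsf11) acts through RANK (Tnfrsf11a) in osteoclast formation and in the development of lymphoid organs. Ltbr, BAFF-R and RANK share the non-canonical NF-kappaB chain, in which the kinase Map3k14 leads to processing of Nfkb2 and to nuclear Relb.

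The upstream sequences of 3 members are shown because Ltb and Tnfrsf13c were among the members that were higher in both CB-NP pools, while Ltbr, the receptor of the Ltb product, lay near its control level. RefSeq promoter windows (GRCm38.p6) were found for 8 of 8 members, and the 250 bases before the start site are printed 5′ to 3′ for these members, whose windows lie wholly before the annotated gene. Capitals mark a match to the kappaB consensus, searched on both strands.
Ltb, chr17:35194257-35194506, plus strand: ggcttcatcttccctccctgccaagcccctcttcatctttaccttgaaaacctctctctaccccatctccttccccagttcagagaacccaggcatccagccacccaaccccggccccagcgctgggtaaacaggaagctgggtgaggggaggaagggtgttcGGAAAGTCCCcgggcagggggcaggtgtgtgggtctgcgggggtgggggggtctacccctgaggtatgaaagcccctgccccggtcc
Tnfrsf13c, chr15:82224381-82224630, minus strand: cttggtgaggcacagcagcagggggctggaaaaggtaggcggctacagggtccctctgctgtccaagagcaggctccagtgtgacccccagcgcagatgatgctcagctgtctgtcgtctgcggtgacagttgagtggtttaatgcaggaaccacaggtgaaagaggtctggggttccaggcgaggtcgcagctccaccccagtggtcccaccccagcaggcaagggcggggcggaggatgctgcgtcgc
Ltbr, chr6:125313886-125314135, minus strand: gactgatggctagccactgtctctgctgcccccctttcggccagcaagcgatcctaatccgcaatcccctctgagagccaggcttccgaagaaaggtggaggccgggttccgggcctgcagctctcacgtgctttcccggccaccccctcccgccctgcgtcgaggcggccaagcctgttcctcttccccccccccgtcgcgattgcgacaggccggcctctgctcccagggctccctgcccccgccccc
The Ltb window held 1 match, on the minus strand and 87 to 78 bases before the start, and the exact letters in capitals, read on either strand, were present in 46 of 32851 windows of the same length (0.14%). The kappaB consensus, which includes them, was present in 7.25%. The Ltb window also held the Ets-type sequence GAGGAAG 101 bases before the start, as did 10.6% of all windows. No match to the consensus, to GAGGAAG or to the EBF-type sequence CCCNNGGGA (5.6% of windows) was found in the windows of Tnfrsf13c and Ltbr. The windows of Lta, Tnfsf13b, Tnfrsf13b, Tnfsf11 and Tnfrsf11a, which are not printed, held none either. Ltb was thus the only member with a match, in 1 of 9 windows, and Lta, similarly higher after exposure, had none. A match describes letters in the window only and was not measured as binding.

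Levels are given as the background-subtracted signal in intensity units, followed by differences of the log2 signal after each array was centred on its own 75th percentile, so that 1 on the log2 scale is 2-fold. The signals of different genes come from different probes and were not set against each other gene by gene. A summed level of a list adds such probes, so the brightest weigh most and the sum can move against the list median. Of the 59305 non-control spots, 57.3% to 59.0% were well above background on the 4 arrays, and none was saturated. The tissue label was met by its markers: the spleen-patterning genes Tlx1 and Nkx2-3 and all 12 genes of the stroma list, all 15 B cell markers and 7 of 7 erythroid markers with a probe were well above background in every pool. The slide was shared by all 4 arrays, so a position on it and a group cannot be told apart. Genes of neighbouring pancreas were lower in the CB-NP pools: the summed level of 16 acinar genes (in units of the 75th percentile) was 28.9 in control and 2.03 in CB-NP males, and 22.4 in control and 2.08 in CB-NP females. The 6 eosinophil genes had summed levels of 31.8 in control and 8.89 in CB-NP males, and of 62.3 in control and 17.2 in CB-NP females. Below, 4 values in a row follow that order. The part of either shift in the values below was not tested.

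Both lymphotoxin genes had higher levels after exposure, with similar differences in males and females. Ltb, the chain that anchors lymphotoxin to the membrane, had signals of 9090 in control and 15700 in CB-NP males, and of 10400 in control and 14000 in CB-NP females. Both CB-NP pools lay above both control pools. The log2 difference was 0.77 in males (1.70-fold, scanner error 0.20) and 0.74 in females (1.66-fold, scanner error 0.20). Female minus male, the control pools differed by -0.03, so that pools of equal exposure lay close together.

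Lta offered a direct view of the reading error, because its probe was printed 10 times on each array. The signal was 132 ± 5.91 in control and 227 ± 10.03 in CB-NP males, and 154 ± 8.47 in control and 221 ± 9.48 in CB-NP females (SD over 10 spots of 1 array). These spots share 1 pool and measure the array, not the animals. On the log2 scale, spots spanned -1.45 to -1.23 in the male control and -0.69 to -0.49 in the male CB-NP pool. In females they spanned -1.49 to -1.26 in the control and -0.64 to -0.44 in the CB-NP pool. No spot of a CB-NP array overlapped with any spot of a control array, as the plot of single spots shows. With spot SDs of 0.06 to 0.08 (log2), this gap describes the reading precision only. How many other repeatedly printed probes separate in this way was not counted. The difference was 0.76 in males (1.70-fold, scanner error 0.07) and 0.83 in females (1.77-fold, scanner error 0.07), while the control pools differed by 0.00.

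**Figure D1:**
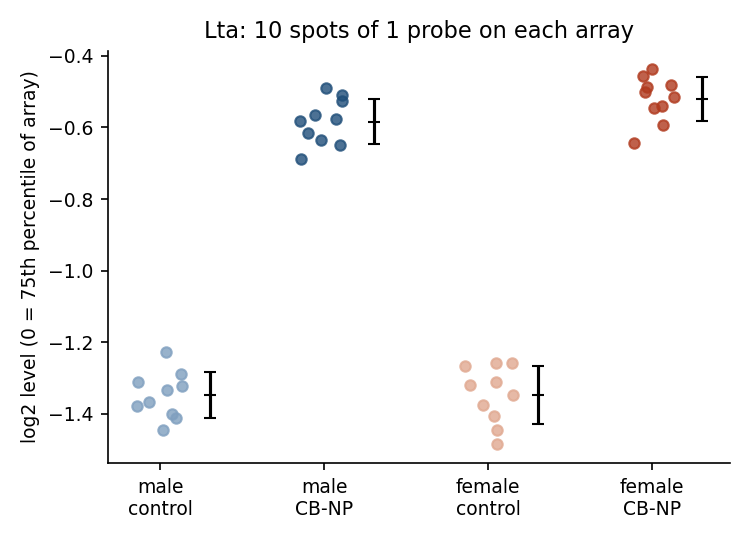
Each point is 1 of 10 spots of the Lta probe on the array of each pool, with the mean and SD over spots beside them; the y axis is the log2 level relative to the 75th percentile of the array. Spots of both CB-NP pools lie between -0.69 and -0.44, above all spots of the control pools, and measure the array, not the animals.

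Ltbr, the receptor of membrane lymphotoxin, did not share this difference. Its signals were 895, 976, 1070 and 880. The log2 differences of 0.10 in males and 0.02 in females were smaller than the scanner error of 0.20. All 4 centred levels lay within 0.10 of each other, and the order of the pools cannot be read from them. The female difference ranged from -0.09 to 0.12 over 6 ways of scaling the arrays, so its sign was not settled.

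Lta, Tnf and Ltb are neighbours on chromosome 17, within the major histocompatibility complex. Tnf, the gene between them, encodes the inflammatory cytokine TNF and had signals of 94.8, 160, 136 and 145 and centred levels of -1.82, -1.09, -1.53 and -1.13. Both CB-NP pools lay above both controls, by 0.74 in males and 0.40 in females, and the female control lay 0.30 above the male control. On the side of Ltb, the next genes Lst1 (0.12 and -0.09), Aif1 (0.10 and -0.05), Prrc2a (0.01 and -0.07) and Bag6 (-0.09 and -0.11) lay near 0. On the side of Lta, Nfkbil1 was at 0.32 and 0.19, Atp6v1g2 at -0.27 and -0.10 and the RNA helicase gene Ddx39b at 0.05 and 0.03. H2-D1, a classical MHC class I gene beyond them, was at 0.70 in males and 0.11 in females. These neighbours, the nearest 4 protein-coding genes on each side, were chosen by position after values of the members had been seen.

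**Figure D2:**
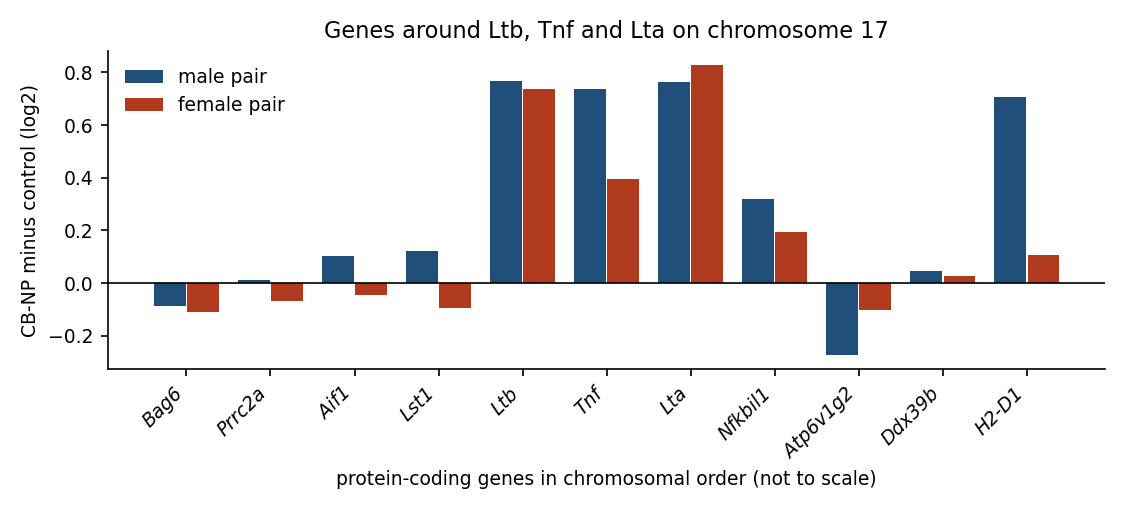
Bars give the log2 difference, CB-NP minus control, in the male pair (blue) and the female pair (red) for 11 protein-coding genes in their order on chromosome 17, not to scale. Ltb and Lta are at 0.74 or more in both pairs, while Bag6, Prrc2a, Aif1, Lst1 and Ddx39b lie within 0.12 of 0.

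In the BAFF axis, the receptor on B cells was higher after exposure and the ligand was not. Tnfrsf13c, which encodes BAFF-R, had signals of 1350 in control and 2500 in CB-NP males, and of 1630 in control and 2240 in CB-NP females. Both CB-NP pools lay above both controls, and the controls differed by 0.05. The log2 difference was 0.87 in males (1.82-fold) and 0.76 in females (1.70-fold), with a scanner error of 0.20 in each. A dimmer second probe of Tnfrsf13c, with signals of 51.1, 79.2, 62.5 and 82.8, gave 0.61 and 0.71.

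Tnfrsf13b, which encodes TACI, had signals of 213, 298, 198 and 208. Its centred level was lowest in the female control (-0.99), followed by the male control (-0.65), the female CB-NP (-0.61) and the male CB-NP pool (-0.19). The male control and the female CB-NP pool, neighbours in that order, differed by less than the scanner error. The difference within sex was 0.46 in males and 0.38 in females (scanner error 0.21 and 0.21), beside -0.33 between the control pools. A dim second probe, with signals of 32.5, 33.4, 33.4 and 40.3, gave 0.02 in males and 0.58 in females, so the probes disagree in the male pair.

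Tnfsf13b, the BAFF gene, was dim, with signals of 62.7 in control and 65.4 in CB-NP males, and of 86.3 in control and 49.4 in CB-NP females. The female control was highest and the female CB-NP pool lowest, with both male pools between them. The log2 difference was 0.04 in males and -0.50 in females (scanner error 0.21 and 0.22), and the control pools differed by 0.23. Of all genes well above background in every pool, 3.96% were as low as Tnfsf13b or lower in the female pair.

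In the RANKL axis the ligand was barely measurable. Tnfsf11 had signals of 4.80, 11.4, 5.55 and 7.83, and it was well above background in the male CB-NP pool only. Set against the lowest signal called well above background on the male control array, it was 1.22-fold higher in the male CB-NP pool. The scanner error of the male difference was 0.67 (log2), so 1.22-fold is not a firm lower bound. In the female pair neither pool was well above background, and no fold is given. The receptor Tnfrsf11a (RANK) had signals of 379, 405, 322 and 398. Its female control was the lowest pool and the other 3 had centred levels of 0.18 to 0.33. The difference was 0.07 in males and 0.61 in females (scanner error 0.20 and 0.20), beside -0.46 between the control pools. Tnfrsf11b, the soluble decoy receptor osteoprotegerin that binds RANKL, was dim, with signals of 17.9 to 24.3, and had differences of -0.17 and 0.08. It was named after its values were seen.

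**Figure D3:**
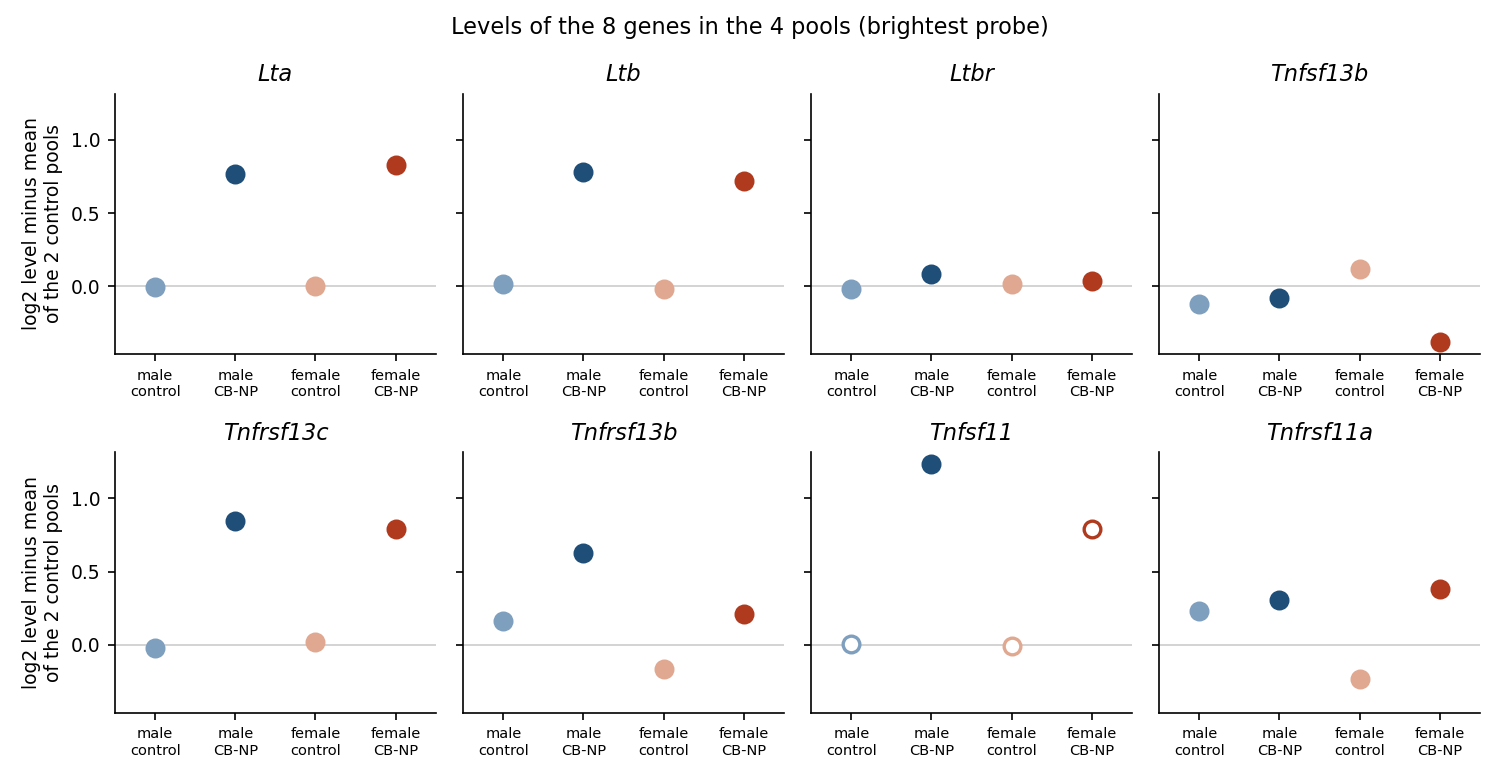
Each panel shows the log2 level of 1 gene (brightest probe) in the 4 pools, relative to the mean of its control pools, with 1 point per pooled array and open points where the spot was not well above background. For Lta, Ltb and Tnfrsf13c both CB-NP pools lie above both controls and the 4 pools span 0.80 to 0.87, while those of Ltbr span 0.10.

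Of the 8 genes, 7 were well above background in all pools and Tnfsf11 was not. At a 2-fold threshold, 0 of the 7 differed in males, where 0.352% of 14188 genes were higher and 0.507% lower. In females 0 of the 7 differed, where 0.661% of 14076 genes were higher and 0.433% lower. The male and female pairs share no array. Lta, Ltb and Tnfrsf13c were at least 1.5-fold higher in both pairs, which is 3 of the 7 beside 0.861% (120) of 13936 genes. None was 1.5-fold lower in both, beside 0.402% of genes. Members and thresholds were chosen with earlier results of these data known, so these shares describe the members and are not a test. Both CB-NP pools lay above both control pools for 6 of the 7, and for 21.8% of all genes. For Ltbr, Tnfrsf13b and Tnfrsf11a, however, the nearest control and CB-NP pools differed by less than the scanner error. The order of those pools was therefore not settled even as a reading of the arrays. Scanner error leaves out the spread between pools, so the order was not tested for the other members either. The median difference of the 7 was 0.46 in males and 0.61 in females, and that of all genes was -0.02 and -0.05. Between the control pools the median of the 7 was 0.00. As many as 23, 37 and 26 of 13936 genes, themselves included, were at least as high in both pairs as Lta, Ltb and Tnfrsf13c.

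**Figure D4:**
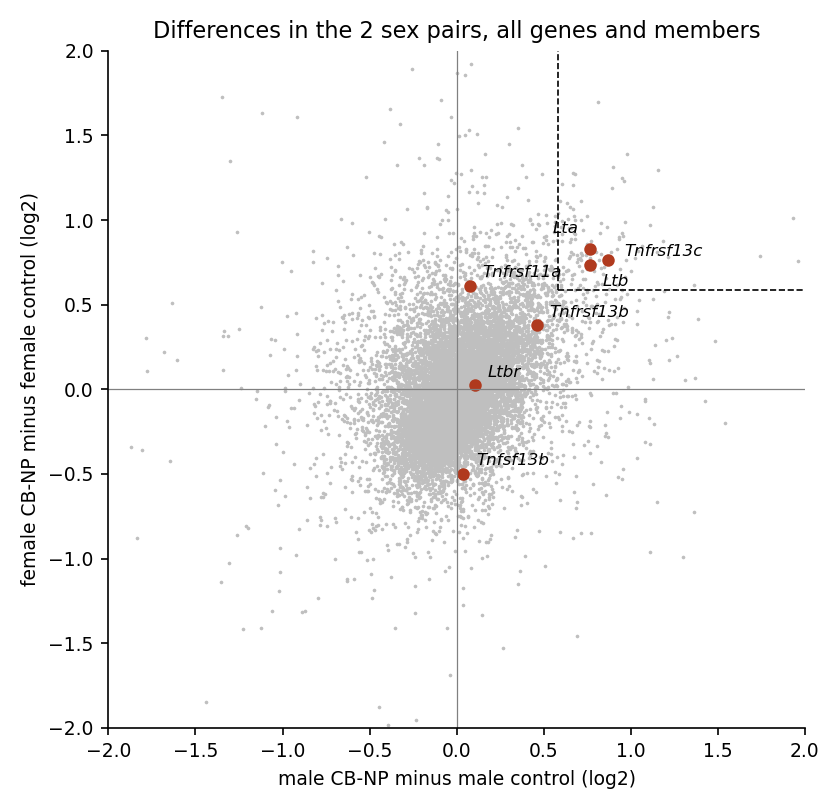
Each grey point is 1 of 13936 genes, by its log2 difference in the male pair (x axis) and in the female pair (y axis), with the 7 measured members in red; 21 genes beyond 2 on either axis are not shown. Dashed lines bound the region at least 1.5-fold higher in both pairs, which holds Lta, Ltb and Tnfrsf13c.

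The shared effect of CB-NP was tested over both sexes with limma, using sex as a term, which leaves 1 residual degree of freedom and lets the sexes stand in for replicates. By limma with Benjamini-Hochberg adjustment over 14503 genes, 0 of the 7 members passed an adjusted p of 0.05, beside 0.0138% of genes called higher and 0.069% called lower. At an unadjusted p under 0.05 were 4 of the 7, and 13.8% of all genes. Lta was higher by 0.80 (SE 0.09, adjusted p 0.276 by limma), Ltb by 0.75 (SE 0.09, adjusted p 0.276) and Tnfrsf13c by 0.82 (SE 0.09, adjusted p 0.276), each in 2 of 2 pairs. Tnfrsf13b was higher by 0.42 (SE 0.09, adjusted p 0.315 by limma), also in both pairs. Ltbr was at 0.06 (SE 0.09, adjusted p 0.730 by limma), Tnfrsf11a at 0.34 (SE 0.17, adjusted p 0.418) and Tnfsf13b at -0.23 (SE 0.17, adjusted p 0.530). Lta, Ltb and Tnfrsf13c passed in 3 of the 10 limma fits, those with an intensity trend in the prior, with normexp background correction and with median centring. The total degrees of freedom of the test were 3.42 as reported above, 8.44 with the trend, and 14503 with normexp and with median centring, where the spread was pooled over all genes. Their adjusted p was 0.0217, 0.00109 and 0.00203 with the trend in limma, and the range over all 10 fits was 0.000126 to 0.705 for Lta, 2.60e-06 to 0.705 for Ltb and 1.47e-07 to 0.705 for Tnfrsf13c.

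Markers of B cells, which carry BAFF-R and make lymphotoxin, were higher in the same pools. All 15 B cell markers were well above background in every pool. In both pairs 14 of the 15 were above 0 (27.8% of all genes were), and 8 of the 15 were at least 1.5-fold higher (0.861% of all genes). The list median was 0.68 in males and 0.68 in females. Its summed level was 85.4 in control and 139 in CB-NP males, and 81.0 in control and 129 in CB-NP females. Fcer2a, the low-affinity IgE receptor (0.95 and 0.92), and Cxcr5, the receptor that guides B cells to follicles (0.96 and 0.91), were among the highest. By limma 0 of the 15 passed, with 14 at an unadjusted p under 0.05 (13.8% of all genes). Relative to the B cell median, Ltb differed by 0.08 in males and 0.05 in females, Lta by 0.08 and 0.14, and Tnfrsf13c by 0.18 and 0.08. Ltbr differed from it by -0.58 and -0.66, Tnfrsf13b by -0.22 and -0.31. In whole tissue, more cells of a type and more RNA per cell cannot be told apart, and the part of B cell content in these differences was not tested.

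T cells and innate lymphoid cells also make lymphotoxin. All 13 T cell markers were measured, with a median of 0.11 in males and 0.61 in females and 9 of 13 above 0 in both pairs (27.8% of all genes). Their summed level was 28.8, 29.8, 28.8 and 39.3. Cd3g (0.30 and 0.73), a chain of the T cell receptor complex, and Cd8a (0.13 and 0.72) are examples. In the list of lymphoid tissue inducer and other innate lymphoid cells, 8 of 11 genes were measured in every pool, with medians of 0.28 and 0.46 and summed levels of 13.1, 16.5, 13.9 and 17.7 over all 11. Il17a and Il23r were well above background in no pool. Ccr6 (0.77 and 0.87) and Cxcr5 led this list, and B cells express both. Natural killer markers had medians of 0.04 and -0.26, and their summed levels were 13.0, 13.4, 14.7 and 12.0. B cell precursor genes had medians of 0.20 and -0.48, with 2 of 7 above 0 and 3 of 7 below 0 in both pairs (27.8% and 39.4% of all genes) and summed levels of 11.2, 17.5, 12.3 and 13.97. Macrophage and dendritic cell lists, which hold sources of BAFF, had medians of 0.11 and 0.06 in males and of 0.02 and -0.06 in females. Their summed levels in the 4 pools were 144, 155, 135 and 157 for macrophages and 194, 199, 187 and 214 for dendritic cells. The neutrophil list had medians of 0.08 in males and -0.37 in females, beside -0.02 and -0.05 for all genes. Above 0 were 7 of 8 genes in males and 0 of 8 in females. With all-gene medians below 0, most of all genes were below 0 in each pair. The exact all-gene share for a single pair is not given, and the difference between the sexes was not tested. In both pairs 0 of 8 were above 0 and 1 of 8 below 0 (27.8% and 39.4% of all genes). Its summed levels were 1327, 1393, 1393 and 1190. The part of these cells in the members' values was not tested.

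Downstream of Ltbr, BAFF-R and RANK, the genes of the non-canonical NF-kappaB chain showed small differences, mostly upward. Of 9 measured genes, 7 were above 0 in both pairs (27.8% of all genes). At least 1.5-fold higher in both were 0 (0.861% of all genes). Nfkb2 was at 0.60 in males and 0.37 in females, Map3k14 at 0.31 and 0.48, Relb at 0.44 and 0.33, and Traf3, the adaptor that restrains Map3k14, at 0.47 and 0.28. Birc3 (0.34 and 0.11) and Chuk (-0.10 and -0.22), the kinase that acts on Nfkb2, completed the genes named. The list median was 0.31 and 0.11. For the canonical chain and its feedback genes the median was 0.22 and 0.04. Of 11 measured genes of this chain, 7 were above 0 in both pairs (27.8% of all genes). At least 1.5-fold higher in both were 0 (0.861% of all genes). The feedback inhibitors of the canonical chain, Tnfaip3 (0.69 and 0.19) and Nfkbie (0.69 and 0.04), were higher in males. The adaptor Traf1 was at 0.69 and 0.49. Traf5 (0.45 and 0.39), Nfkbia (0.29 and 0.26) and Traf6 (-0.13 and -0.27) were the others named. By limma with Benjamini-Hochberg adjustment 0 of the 9 and 0 of the 11 passed, with 4 and 3 at an unadjusted p under 0.05 (13.8% of all genes).

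Genes of lymphoid stroma known to depend on lymphotoxin were measured in every pool for 9 of 12, with medians of 0.42 in males and 0.47 in females. At least 1.5-fold higher in both pairs were 2 of 9 (0.861% of all genes), Mfge8 and Cr2, and the B cell list also holds Cr2. Above 0 in both pairs were 6 of 9 (27.8% of all genes). Mfge8, made by follicular dendritic cells and by macrophages, was at 0.68 and 1.02. Madcam1, the adhesion molecule of the marginal sinus, was at 0.52 and 0.98. The follicle chemokine gene Cxcl13 was at 0.42 and 0.52, and Ccl19, a chemokine of the T cell zone, at 0.52 and 0.47. Cr2, the complement receptor of B cells and follicular dendritic cells, was at 0.59 and 0.68, but its control pools differed by -1.08, more than either pair. Nkx2-3 was at 0.06 and 0.33. The wider stroma list, which shares Madcam1 and Nkx2-3, had medians of 0.09 and 0.11 and summed levels of 69.5, 70.4, 64.7 and 73.4. By limma 0 of the 9 lymphotoxin-dependent genes passed, with 5 at an unadjusted p under 0.05 (13.8% of all genes).

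Of 11 measured genes of B cell survival and maturation downstream of BAFF-R, 6 were above 0 in both pairs and 1 below 0 in both, beside 27.8% and 39.4% of all genes. At least 1.5-fold higher in both were 2 (0.861% of all genes), the markers Fcer2a and Cr2 that the B cell list also holds. Icosl, a costimulatory ligand on B cells, was at 0.51 and 0.78, Bcl2, which blocks cell death, at 0.36 and 0.34, Cd93 at 0.21 and 0.34 and the survival kinase gene Pim1 at -0.40 and -0.31. The medians were 0.35 in males and 0.16 in females. Osteoclast genes known to be induced through RANK had medians of -0.01 and -0.02, with 3 of 9 measured genes above 0 (27.8% of all genes) and 4 of 9 below 0 (39.4% of all genes) in both pairs. Nfatc1, the main factor of that programme, was at 0.19 and 0.55, Itgb3 at 0.32 and 0.27, the protease genes Ctsk at -0.30 and -0.23 and Mmp9 at 0.04 and -0.88, Ocstamp at -0.46 and -0.02, and Car2, also abundant in red cell precursors, at -0.14 and -0.33. By limma 0 of the 11 and 0 of the 9 passed, with 5 and 1 at an unadjusted p under 0.05 (13.8% of all genes).

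**Figure D5:**
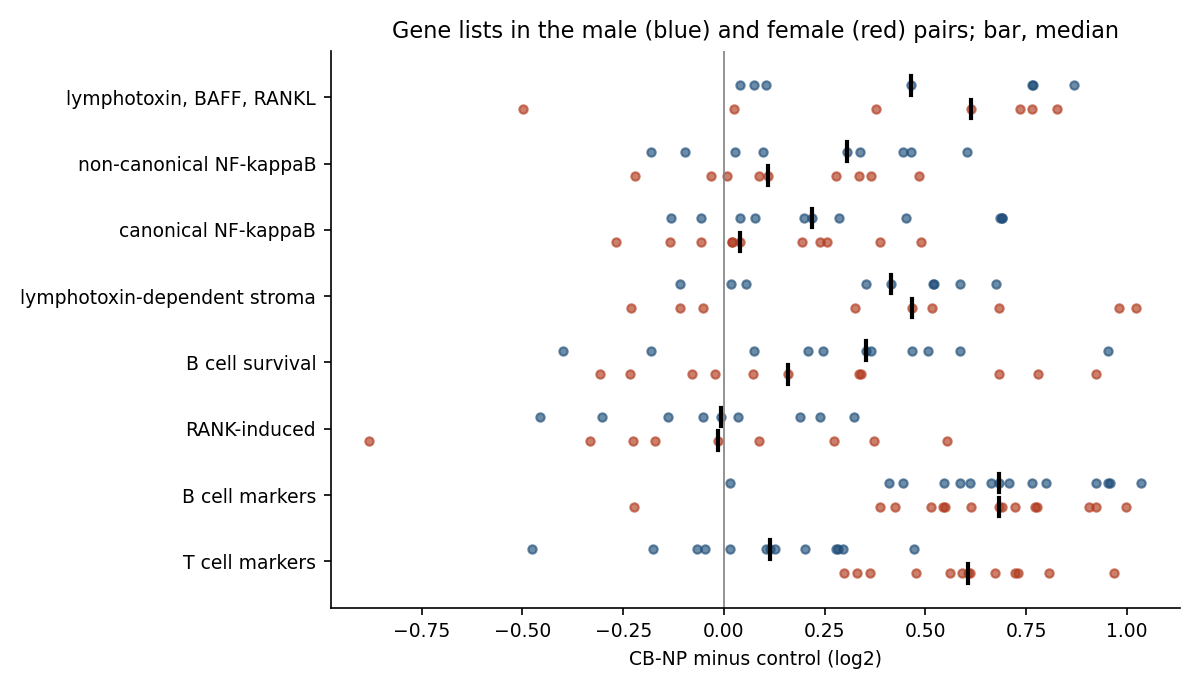
Each point is a gene that was well above background in all pools, by its log2 difference in the male pair (blue) or the female pair (red), and black bars are list medians. The B cell markers have medians of 0.68 and 0.68, and RANK-induced genes have medians of -0.01 and -0.02.

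Among other ligands of the superfamily, 8 of 14 were measured in every pool, with medians of -0.08 in males and 0.39 in females. Of these, 0 were at least 1.5-fold higher in both pairs (0.861% of all genes). Tnfsf15 was at 0.15 and 0.77, Tnfsf10, the death ligand TRAIL, at -0.10 and 0.71, Tnfsf12, which encodes TWEAK, at -0.05 and 0.46, Tnfsf14, a second ligand of Ltbr, at 0.29 and 0.12, and Eda at -0.55 and -0.17. Tnfsf13, the gene of the BAFF relative APRIL, was not analysed here. Of the other receptors, 17 of 21 were measured, with medians of 0.16 and 0.33. At least 1.5-fold higher in both pairs was 1 of the 17 (0.861% of all genes). That was Cd40 (0.86 and 0.66), which receives T cell help on B cells. Tnfrsf14, the receptor of Tnfsf14, was at 0.91 and 0.53 but also differed by 0.70 between the control pools. Tnfrsf18 was at 0.55 and 0.88, Tnfrsf19 at 0.55 and 0.56, Fas at 0.51 and 0.38 and Tnfrsf12a at -0.23 and -0.63. By limma 0 of the 8 ligands and 0 of the 17 receptors passed, with 1 and 8 at an unadjusted p under 0.05 (13.8% of all genes).

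Genes whose pattern over the 4 pools was most like that of a member were found by the root mean square difference of centred log2 levels among 13935 other genes. Within 0.05 lay 9 genes for Lta, 18 for Ltb, 9 for Tnfrsf13c, 6 for Tnfrsf13b and 26 for Tnfrsf11a. Only 4 pools enter this measure, which limits what closeness can show. Among the 3 nearest to Lta were Btla, an inhibitory receptor of lymphocytes (0.02), and Srpk3 (0.03). Stac2 (0.01) and Pou2f2, a B cell transcription factor (0.02), were among the 3 nearest to Ltb. For Tnfrsf13c they included Stac2 (0.03) and Fcrl1, a receptor of B cells (0.03). Tnfrsf13c was 7th nearest to Lta and 13th nearest to Ltb, at 0.05 and 0.04. Tnfrsf13b lay nearest to Nuak1 (0.03), Smc1b (0.03) and Trpc6 (0.04), and Tnfrsf11a to Rell2 (0.02), Pappa (0.02) and Krt79 (0.02).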

How the data were processed

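Per the file headers, the authors' 1-colour Agilent arrays of design 028005 (grid build mm9) were read with Feature Extraction 10.10.1.1. The deposited processed signal is an intensity from which background was subtracted and a spatial trend removed, with no normalization between arrays. The deposited flags and errors of each spot, and the deposited value table (an intensity equal to the processed signal times 1 constant per array), were also used. The target of that scaling, with column medians of 75.2, 76.1, 68.9 and 79.4, is not given in the sources used here. Per the labels, RNA was pooled by group before labelling.

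From each log2 processed signal the 75th percentile of its array (non-control spots) was subtracted. Outlier spots were dropped, and the remaining spots of a probe averaged. Of 55681 probes, 26762 were matched to 20284 genes by RefSeq accession (GRCm38.p6, for names, chromosomes, gene order and promoters), and the probe with the highest mean signal stood for a gene. A within-sex comparison used genes well above background on both arrays, and has no test. The limma 3.58.1 model (R 4.3.3) took genes detected that way on 2 or more arrays, at a Benjamini-Hochberg adjusted p of 0.05. Scanner error is the propagated error of the spots. Alternatives were normexp (offset 50), quantile and cyclic loess normalization, median centring, the value table, other filters and other models. Named were the members, up to 6 genes per list with the largest mean difference in either direction among those well above background in every pool, and the 3 genes most alike for each member that spanned at least 0.5 (log2). Tnfrsf11b, Tlx1, Il17a, Il23r and the chromosomal neighbours were named outside this rule after their values were seen. Some genes that the rule selects are not reported here. The members, gene lists, motifs and thresholds were chosen with earlier results of these data known. Python 3.11.15 with pandas 2.3.3, numpy 2.4.6 and matplotlib 3.10.9 did the rest.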

Additional observations from a re-analysis of the deposited data

Results flagged for a closer look

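Tnfsf13b, the BAFF gene, differed in opposite directions in the sexes. The log2 difference was 0.04 in males and -0.50 in females, so that the female difference minus the male difference was -0.54. With 1 pool per group the difference between the sexes was not tested. The male value lay within its scanner error of 0.21, and the signals in the 4 pools were between 49.4 and 86.3 intensity units. With normexp background correction the female difference was -0.21.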

How the results depend on the processing

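Animals or replicates could not be paired within a sex, because each group is 1 pool with no replicate numbers to pair. The limma model matched the pools by sex only, and without the sex term it called 2 genes higher and 7 lower. With 1 pool per group none could be left out. The medians of the 7 measured members in the male pair, the female pair and between controls moved by less than the median scanner error of these members in each of the other 5 scalings. Between controls, median centring moved every member by the same amount, such as Lta from 0.00 to 0.12 and Ltb from -0.03 to 0.09. This exceeded the scanner error for Lta only, whose error over 10 spots was 0.07, against 0.20 or more for the others. In the female pair Lta also moved by more than its scanner error. Its difference went from 0.83 to 0.72 with median centring, 0.65 with normexp and 0.92 with the authors' value table. In the male pair Lta moved by more than that error with normexp, from 0.76 to 0.57. Tnfsf13b moved by more than its scanner error in the female pair with normexp, from -0.50 to -0.21. With median centring, the all-gene median of the female pair shifted by -0.11, as did every member. Lta, Ltb and Tnfrsf13c stayed at least 1.5-fold higher in both pairs in 5 of the 6 scalings, and with normexp 2 of them did, Lta being at 0.57 in males. With normexp, genes at least 2-fold higher and lower numbered 11 and 24 in males (50 and 72 before) and 20 and 30 in females (93 and 61 before), and 46 and 32 genes were at least 1.5-fold higher and lower in both pairs (120 and 56 before). The authors' value table gave 140 genes at least 2-fold higher in females and 190 at least 1.5-fold higher in both pairs. By limma, 2 genes were called higher and 10 lower. These counts were 171 and 173 with median centring, 359 and 253 with normexp and 227 and 153 with an intensity trend, and 3 members (Lta, Ltb and Tnfrsf13c) passed in each of these. With median centring and with normexp limma gave every member 1 common SE, 0.218 and 0.127. The counts were 0 and 3 with quantile normalization, 0 and 3 with cyclic loess and 0 and 2 with the value table, where 1181, 1140 and 1687 genes were higher and 795, 800 and 460 lower at an unadjusted p under 0.05 by limma. They were 0 and 0 when detection on all 4 arrays was required (1162 and 951 unadjusted) and 0 and 0 without a filter (801 and 562 unadjusted). Low signal limits Tnfsf11, Tnfsf13b and the second probe of Tnfrsf13b: repeated spots between 30 and 100 intensity units had a median SD of 0.12 to 0.13 (log2), against 0.05 for those between 1000 and 20000.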
